A study of Homo sapiens with 24 samples.

Results

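HPDE cells given extracellular vesicles (EV) from PANC-1 cells were compared with HPDE cells given vesicles from PPCL-68 cells, across all genes with measurable RNA. HPDE, labelled HPDE c7, is a cloned line of human pancreatic duct epithelium immortalised with papillomavirus oncogenes, which all HPDE groups share. PANC-1 is an established line from a human pancreatic carcinoma, and PPCL-68 is known here by its name only. Extracellular vesicles are membrane-bound particles that cells shed and that can carry protein, lipid and RNA to other cells. The comparison rested on 6 of the 24 libraries of the series, 3 for each vesicle source. Both groups received 1e10 vesicles per well for 24 h in serum-free keratinocyte medium and did not carry any other labelled treatment. Another 6 HPDE libraries gave reference levels, 3 from cells in fresh medium and 3 from cells given the residual medium of a vesicle isolation. HPNE, a pancreatic line immortalised with telomerase, was put through the same 4 treatments and gave the other 12 libraries. The labels name neither the vesicle source behind the residual medium nor whether the libraries of a group had separate vesicle preparations, so p-values measure only the spread between these libraries.

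Genes were kept where FPKM (reads of a gene scaled by its length and by library size) averaged at least 1 over the 12 HPDE libraries, which left 12223 of the 48162 genes listed. Depth was even: the 6 vesicle-treated libraries held 29209142 to 37142943 reads assigned to genes, with a read in 21286 to 23310 genes. Duct epithelium markers were present in every library, and 10 of the 14 listed passed the level filter. Their summed level was 1583 to 1847 FPKM across the PANC-1 EV libraries and 1465 to 1479 FPKM across those of PPCL-68 EV. Both ranges lay below the 3188 to 3569 FPKM of residual medium and the 2811 to 3054 FPKM of fresh medium. KRT7, a keratin of simple and ductal epithelium and the most abundant of these markers, averaged 631 ± 55.4 FPKM (SD, n = 3) with PANC-1 EV and 599 ± 10.97 FPKM with PPCL-68 EV. Acinar and endocrine markers reached a summed level of at most 0.508 FPKM in the vesicle-treated libraries and 0.598 FPKM in the other HPDE libraries, and none of the 17 passed the level filter, while 2 of 12 fibroblast and 1 of 13 leukocyte or endothelial markers did.

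When misfolded protein builds up in the endoplasmic reticulum (ER), the sensors ATF6, IRE1 and PERK switch on genes for chaperones, for disposal of misfolded protein and for vesicle traffic to the Golgi, and PERK also acts through the factors ATF4 and CHOP. Interferon signalling runs along a separate route to genes that restrict viruses and to chemokines such as CXCL10. Both routes are well known in epithelial cells under stress or infection.

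Of the 12223 genes, 6123 (50.1%) differed between the vesicle sources at an adjusted p under 0.05 (limma on log2(FPKM + 1), Benjamini-Hochberg). The calls split into 3084 genes higher with PANC-1 EV (25.2%) and 3039 lower (24.9%). Every count of list members called between the sources is to be read beside these shares. Differences are given below as PANC-1 EV minus PPCL-68 EV on that log2 scale, which understates the change of genes near 1 FPKM. Most were small: 2178 of the called genes differed by under 0.25 and 2948 by 0.25 to under 0.5, while 916 differed by 0.5 to under 1 and 81 (0.663%) by at least 1. Of those 81, 58 were higher with PANC-1 EV (0.475%) and 23 were lower (0.188%). Their number depended on how low values were treated, reaching 166 with a pseudocount of 0.1 FPKM and 191 with limma voom on the recovered read counts. In 6822 genes (55.8%) the 3 libraries of one source lay wholly above those of the other. In bulk libraries of this kind, fewer cells of a type and less RNA per cell cannot be told apart, and neither can RNA delivered by vesicles and RNA made by the recipient cells.

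**Figure D1:**
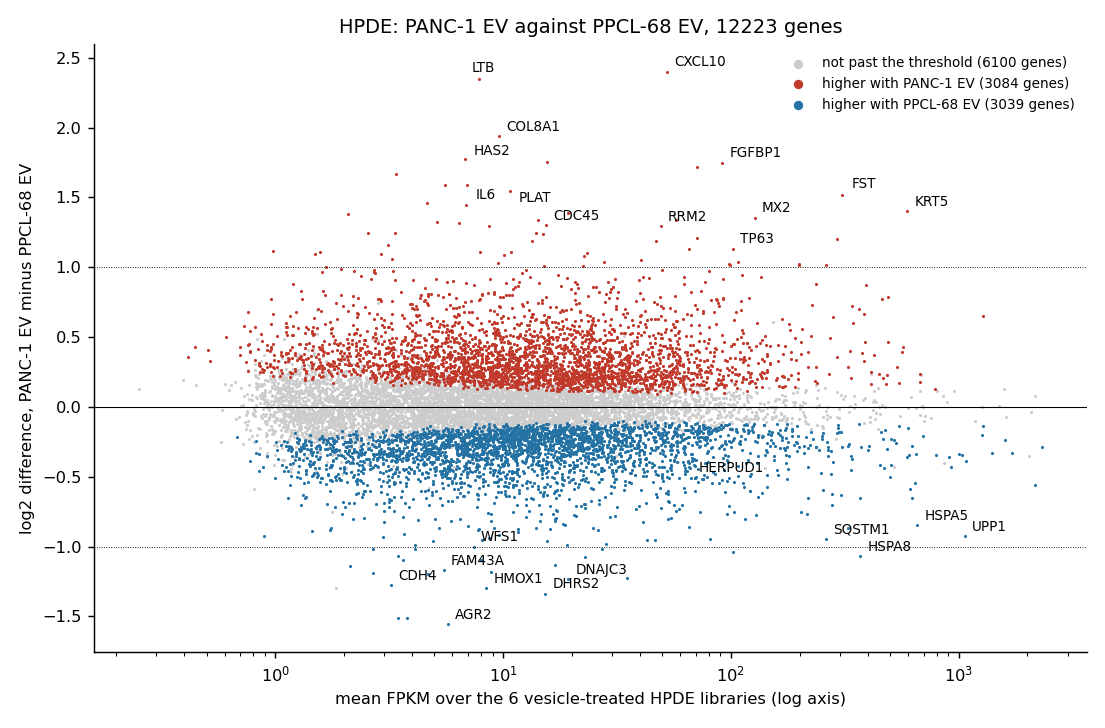
Log2 difference (PANC-1 EV minus PPCL-68 EV, vertical axis) of each of the 12223 genes against its mean FPKM over the 6 libraries (horizontal log axis), coloured by the test. Differences run from -1.56 for AGR2 to 2.40 for CXCL10, and the dotted lines mark a log2 difference of 1 in either direction.

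The ER folding machinery was lower with PANC-1 EV than with PPCL-68 EV. Of 30 ER chaperones and folding enzymes, 24 were lower, none was higher and 6 did not pass the test, against 24.9% lower among all genes. Their median difference was -0.40, where the median of all genes was -0.0019. Their summed level was 2538 to 2682 FPKM across the PANC-1 EV libraries and 3498 to 3808 FPKM across those of PPCL-68 EV, so the libraries of the 2 sources did not overlap. HSPA5, the abundant ER Hsp70 also called BiP, read 459.6, 491 and 459 FPKM in the PANC-1 EV libraries and 903, 837 and 799 FPKM in the PPCL-68 EV libraries. All 3 PPCL-68 EV libraries were above all 3 PANC-1 EV libraries, and the difference was -0.85 (SE 0.05, adjusted p = 2.78e-08), a level 1.80-fold higher with PPCL-68 EV. HSPA5 lies on chr9:127997132-128003609 (hg19, minus strand, ENSG00000044574). DNAJC3, a co-chaperone of HSPA5 that also inhibits PERK, read 11.6, 10.8 and 10.8 FPKM with PANC-1 EV and 28.7, 27.4 and 26.3 FPKM with PPCL-68 EV. It had the largest difference of the list, -1.23 (SE 0.05, adjusted p = 6.56e-10), and its PANC-1 EV libraries sat at the residual-medium level of 10.6, 11.5 and 11.8 FPKM. HYOU1, an exchange factor for HSPA5, differed by -0.94 (adjusted p = 6.56e-10) and MANF, a secreted ER protein, by -0.88 (adjusted p = 1.05e-07).

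A sequence that ATF6 is known to bind, the ER stress response element (CCAAT and CCACG with 9 bases between them), was searched on both strands in RefSeq promoters (GRCh38.p14) from 250 bases before to 50 after each start. It stood in 6 of the 28 matched promoters of the ER folding list (21.4%), in 0.0769% of all RefSeq promoters and in 0.151% of those of tested genes. Of the 6 genes, 5 were lower with PANC-1 EV, and CALR, the lectin chaperone calreticulin, did not pass the test. In the whole list 24 of 30 (80%) were lower. The promoters of HSPA5, CANX and HSP90B1 are shown because they hold the element, with its fixed letters in capitals. CANX and HSP90B1 were picked for this after their values were seen.
HSPA5, chr9:125241344-125241443 (minus strand): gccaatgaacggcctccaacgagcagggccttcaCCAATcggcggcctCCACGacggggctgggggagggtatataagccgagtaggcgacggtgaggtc
CANX, chr5:179698769-179698928 (plus strand): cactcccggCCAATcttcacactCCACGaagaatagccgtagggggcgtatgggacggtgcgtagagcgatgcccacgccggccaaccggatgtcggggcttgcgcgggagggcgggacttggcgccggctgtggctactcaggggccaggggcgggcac
HSP90B1, chr12:103930210-103930409 (plus strand): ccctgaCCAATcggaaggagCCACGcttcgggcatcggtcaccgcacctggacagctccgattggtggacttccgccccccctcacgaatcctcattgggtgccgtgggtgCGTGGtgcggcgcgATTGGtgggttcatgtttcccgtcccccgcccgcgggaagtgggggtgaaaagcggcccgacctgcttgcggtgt
The element runs from base -66 to -48 relative to the start in HSPA5 and from -151 to -133 in CANX. HSP90B1 holds it from -194 to -176 and, on the opposite strand, from -89 to -71. CANX, the membrane lectin chaperone calnexin, averaged 217 FPKM with PANC-1 EV and 336 FPKM with PPCL-68 EV, a difference of -0.63 (SE 0.05, adjusted p = 3.04e-07). HSP90B1, the ER Hsp90, averaged 432 and 577 FPKM and differed by -0.42 (SE 0.06, adjusted p = 4.89e-05). A match to these letters describes the promoter and does not show binding.

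Genes for export of misfolded protein and for entry into the ER moved the same way. Of 29 genes of ER-associated degradation and translocation, 27 (93.1%) were lower with PANC-1 EV and 1 was higher, with a median of -0.51. WFS1, an ER membrane protein that regulates ATF6, read 4.61, 4.64 and 4.62 FPKM against 10.7, 10.4 and 9.68 FPKM and was 2.22-fold higher with PPCL-68 EV (adjusted p = 1.53e-08). SEC11C, a signal peptidase subunit, differed by -0.96, and ERLEC1, an ER lectin, by -0.86. HERPUD1, which helps assemble the degradation complex, read 55.9, 53.5 and 55.8 FPKM with PANC-1 EV and 78.4, 80.7 and 76.5 FPKM with PPCL-68 EV, a difference of -0.51 (SE 0.05, adjusted p = 7.35e-07). The 1 gene that was higher, SEC62 of the translocation channel, differed by 0.16 (adjusted p = 0.00646). Among 25 genes of COPII coats and Golgi transport, 22 (88.0%) were lower with PANC-1 EV and none was higher, with a median of -0.42. SEC24D, a cargo adaptor of the COPII coat, read 18.3, 16.3 and 18.5 FPKM against 37.2, 37.7 and 35.6 FPKM and differed by -1.02 (SE 0.06, adjusted p = 7.23e-09). SURF4, a cargo receptor, differed by -0.75 and KDELR1, a retrieval receptor for ER residents, by -0.35.

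The stress sensors and transcription factors themselves split. Of 20 tested, 6 were higher with PANC-1 EV and 9 lower, with a median of -0.05. DDIT3, which encodes CHOP, was higher with PANC-1 EV at 50.5, 52.0 and 53.2 FPKM, against 37.9, 38.6 and 38.1 FPKM with PPCL-68 EV and 6.03, 7.16 and 8.99 FPKM in residual medium. Its difference was 0.43 (SE 0.09, adjusted p = 0.00136), opposite in sign to that of HSPA5. PPP1R15A, the GADD34 subunit that reverses eIF2 phosphorylation, was lower with PANC-1 EV by -0.35 (adjusted p = 0.00046), as was EIF2AK3, which encodes PERK, by -0.43 (adjusted p = 0.000178). XBP1, the factor spliced by IRE1, averaged 134 ± 7.06 FPKM with PANC-1 EV and 147 ± 6.01 FPKM with PPCL-68 EV. Its libraries overlapped and its call, at -0.13 (adjusted p = 0.034), was lost with median-of-ratios scaling, with no level filter, in the fit of 6 libraries alone and without 4 of the 12 libraries in turn. ATF4 averaged 164 and 174 FPKM (difference -0.09, adjusted p = 0.0949), and ATF3 43.4 and 42.9 FPKM (difference 0.02, adjusted p = 0.904).

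Targets of ATF4 and CHOP leaned lower with PANC-1 EV, with 3 of 25 higher, 10 lower and a median of -0.11. ADM2, a secreted peptide hormone, differed by -0.80 (adjusted p = 7.81e-07), from 3.23, 3.52 and 3.41 FPKM with PANC-1 EV to 6.97, 6.69 and 6.23 FPKM with PPCL-68 EV. CARS, the cysteinyl-tRNA synthetase, was the member furthest in the other direction at 0.40 (adjusted p = 1.24e-05). GDF15, a stress-responsive cytokine, averaged 13.6 and 14.1 FPKM, against 1.33 FPKM in residual medium, and did not differ between the sources at this test (difference -0.05, 95% interval -0.25 to 0.15). LURAP1L stood at 25.2 and 28.6 FPKM against 1.71 FPKM in residual medium, with a difference between sources of -0.17 (adjusted p = 0.138), which passed the test in the fit of 6 libraries alone and with voom. Relative to residual medium both genes were high with either source.

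**Figure D2:**
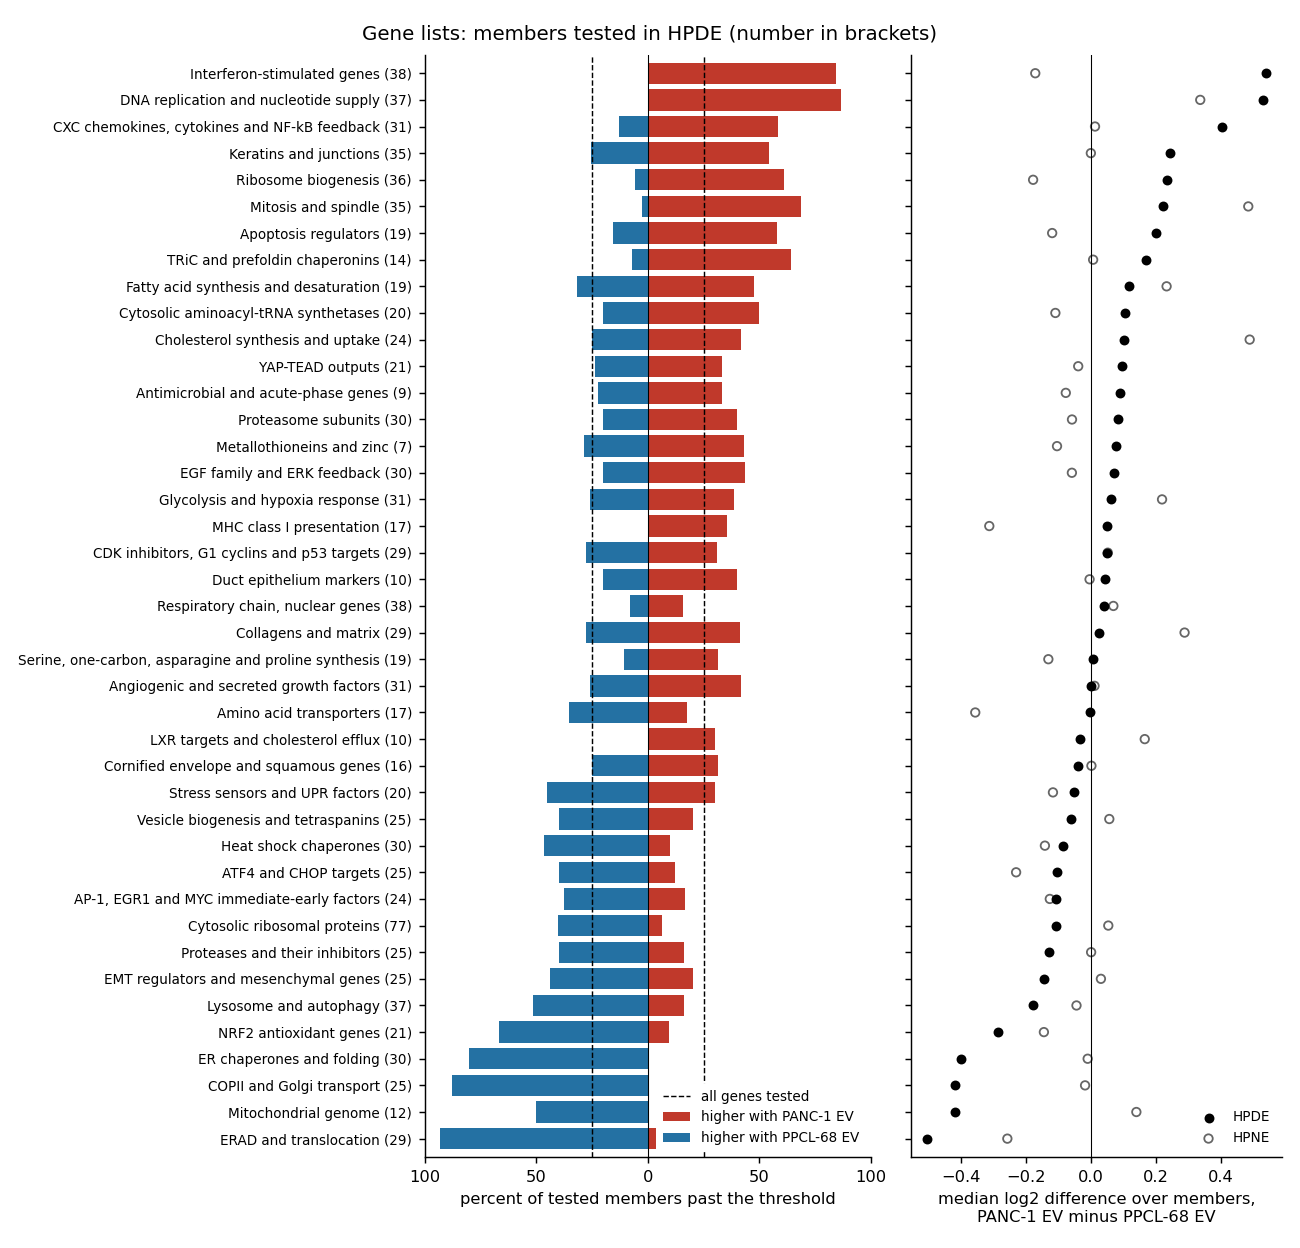
Left: percent of the tested members of each gene list that were higher with PANC-1 EV (right-hand bars) or higher with PPCL-68 EV (left-hand bars), with dashed lines at the 25.2% and 24.9% of all genes. Right: median log2 difference over the members in HPDE (filled) and in HPNE (open), which runs in HPDE from -0.51 for ER-associated degradation to 0.54 for interferon-stimulated genes.

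Antioxidant genes under the transcription factor NRF2 were also lower with PANC-1 EV: 14 of 21 (66.7%) were lower and 2 higher, with a median of -0.29. HMOX1, the haem-degrading enzyme, read 3.98, 4.47 and 4.84 FPKM with PANC-1 EV and 14.4, 12.4 and 10.5 FPKM with PPCL-68 EV. The groups were far apart, with a difference of -1.30 (SE 0.10, adjusted p = 1.17e-07), and the PANC-1 EV level was close to the 4.78 FPKM of residual medium. NFE2L2, the gene of NRF2 itself, was higher with PANC-1 EV by 0.31 (adjusted p = 0.000268). SQSTM1, the autophagy receptor p62, read 172, 174 and 188 FPKM with PANC-1 EV and 348, 353 and 330.0 FPKM with PPCL-68 EV, a difference of -0.95 (SE 0.06, adjusted p = 1.50e-08). FTL, the ferritin light chain that stores iron, differed by -0.56 (adjusted p = 7.66e-06); FTH1, the heavy chain, differed by -0.77, although its many processed copies make its count uncertain. Of 37 lysosome and autophagy genes, 19 (51.4%) were lower with PANC-1 EV and 6 higher. Among them MAP1LC3B, the membrane marker of autophagosomes, differed by -0.75 and the proton pump subunit ATP6V1B2 by -0.66.

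Some enzymes and secretory proteins were also higher with PPCL-68 EV. UPP1, uridine phosphorylase, read 714, 771 and 709.6 FPKM with PANC-1 EV, 1413, 1455 and 1304 FPKM with PPCL-68 EV and 162, 193 and 207 FPKM in residual medium. Both sources were thus far above residual medium, and they differed by -0.93 (SE 0.10, adjusted p = 3.88e-06). DHRS2, a short-chain dehydrogenase, read 8.59, 7.91 and 8.12 FPKM against 24.9, 22.7 and 19.5 FPKM, a difference of -1.34 (SE 0.11, adjusted p = 3.37e-07). AGR2, an ER-resident disulfide isomerase of secretory epithelium, read 2.51, 2.46 and 2.26 FPKM with PANC-1 EV and 9.76, 8.92 and 8.44 FPKM with PPCL-68 EV. It had the most negative difference of all genes tested, -1.56 (SE 0.08, adjusted p = 5.78e-09), a level 3.75-fold higher with PPCL-68 EV. AGR2 lies on chr7:16831435-16873057 (hg19, minus strand, ENSG00000106541).

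The same end of the range held CDH4, the adhesion molecule R-cadherin, at -1.28, CDK2AP2, a CDK2-associated protein, at -1.23, and the calcium sensor SYT7, a synaptotagmin of lysosome exocytosis, at -1.20. INA, a neuronal intermediate filament, differed by -1.18 and FAM43A by -1.17. Their adjusted p-values lay between 5.27e-09 (CDK2AP2) and 5.98e-08 (CDH4), and in none of these 5 genes did the sources overlap. HIST2H2BF, a histone gene with near-identical copies, differed by -1.19 and its reads may be shared with those copies. RP1-56J10.8 differed by -1.51 and lies inside a gene on the same strand, from which its reads cannot be told apart. AL096677.1 rested on 0 to 5 reads per PANC-1 EV library and 9 to 11 per PPCL-68 EV library, and its call (difference -1.51, adjusted p = 0.0493) was lost with a pseudocount of 0.1 FPKM, with no level filter and without 8 of the 12 libraries in turn.

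Heat shock chaperones of the cytosol and mitochondria were lower with PANC-1 EV in 14 of 30 members (46.7%) and higher in 3, with a median of -0.09. HSPA8, the constitutive Hsc70 that serves folding and coat removal from clathrin vesicles, read 238, 231 and 245 FPKM with PANC-1 EV and 545, 480.0 and 478 FPKM with PPCL-68 EV. Residual medium gave 1038, 1167 and 1129 FPKM, so both sources were far below it and PANC-1 EV was the lower, by -1.07 (SE 0.06, adjusted p = 8.13e-09). HSPA1B, a stress-induced Hsp70 whose reads can be shared with its twin HSPA1A, differed by -0.99. HSPA6, another inducible Hsp70, differed by -1.07 (adjusted p = 0.00217), or by -0.71 without the second PANC-1 EV library. HSP90AA1, the inducible cytosolic Hsp90, went the other way at 582, 606 and 569.8 FPKM with PANC-1 EV and 517, 465 and 459 FPKM with PPCL-68 EV, a difference of 0.29 (adjusted p = 0.00139). The ring chaperonin TRiC and its helper prefoldin were higher with PANC-1 EV in 9 of 14 genes and lower in 1, with CCT8 of the ring at 0.38 and PFDN1 at 0.39.

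The heat shock element, bound by HSF1, was searched on both strands as GAA, TTC and GAA with 2 bases between neighbours. It was found in 5 of 27 matched heat shock promoters (18.5%), in 0.490% of all promoters and in 0.312% of those of tested genes. Of these 5 genes, 4 were lower with PANC-1 EV, beside 14 of 30 (46.7%) in the whole list. CHORDC1 was higher, at 0.14 (adjusted p = 0.0457), a call lost with no level filter, in the fit of 6 libraries alone and without 7 of the 12 libraries in turn. The promoter of HSPA8 is shown because it holds the element from -230 to -218 and, on the opposite strand, from -55 to -43, with the fixed letters in capitals.
HSPA8, chr11:123062137-123062376 (minus strand): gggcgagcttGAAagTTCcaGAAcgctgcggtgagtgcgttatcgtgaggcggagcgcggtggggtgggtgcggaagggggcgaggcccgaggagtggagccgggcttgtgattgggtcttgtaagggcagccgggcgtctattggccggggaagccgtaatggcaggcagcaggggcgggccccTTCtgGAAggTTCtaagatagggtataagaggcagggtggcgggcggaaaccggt

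Interferon-stimulated genes were higher with PANC-1 EV. Of 38 tested, 32 (84.2%) were higher, none was lower and 6 did not pass the test, against 25.2% higher among all genes, and their median was 0.54. MX2, a GTPase that restricts viruses, read 179, 190.0 and 181 FPKM with PANC-1 EV and 72.3, 69.7 and 70.9 FPKM with PPCL-68 EV. Residual medium lay between them at 104, 100.1 and 88.5 FPKM, and the sources differed by 1.35 (SE 0.08, adjusted p = 1.39e-08). XAF1, a pro-apoptotic interferon target, differed by 1.05 and IFIT1, which binds viral RNA, by 1.03. IFI6, the most abundant of the list, averaged 1499 ± 189 FPKM with PANC-1 EV and 1489 ± 171 FPKM with PPCL-68 EV, and the 95% interval of its difference was -0.21 to 0.23. Genes of MHC class I presentation were higher with PANC-1 EV in 6 of 17 and lower in none; the immunoproteasome subunit PSMB9 differed by 0.64, and B2M, the shared light chain, by 0.03 (adjusted p = 0.527).

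CXCL10, a chemokine induced by interferon that draws T cells, had the largest difference of all genes. It read 81.0, 107 and 78.5 FPKM with PANC-1 EV, 18.4, 14.05 and 15.3 FPKM with PPCL-68 EV and 21.1, 21.7 and 16.7 FPKM in residual medium. Only the PANC-1 EV libraries stood apart, by 2.40 from PPCL-68 EV (SE 0.12, adjusted p = 3.93e-09), which was 5.57-fold. CXCL10 lies on chr4:76942273-76944650 (hg19, minus strand, ENSG00000169245). Across 31 chemokines, cytokines and NF-kB feedback genes, 18 (58.1%) were higher with PANC-1 EV and 4 lower, with a median of 0.40. IL6 read 10.6, 11.2 and 10.9 FPKM against 3.25, 3.01 and 2.62 FPKM, a difference of 1.59 (SE 0.10, adjusted p = 2.00e-08), and its PPCL-68 EV libraries overlapped those of residual medium at 2.07, 3.07 and 2.17 FPKM. TNFAIP2, an NF-kB target, differed by 1.44, and IL1A, the alarmin interleukin 1 alpha, by 0.65 from 1569 to 997 FPKM. Of the 4 that were lower, CXCL3, a neutrophil chemokine, differed by -0.38 (adjusted p = 0.0442), and that call was lost with a pseudocount of 0.1 FPKM, with no level filter and without 6 of the 12 libraries in turn.

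Other secreted immune factors stood at the top of the range. LTB, lymphotoxin beta of the TNF family, read 13.0, 14.9 and 13.3 FPKM with PANC-1 EV and 1.36, 2.04 and 2.36 FPKM with PPCL-68 EV, a difference of 2.35 (SE 0.13, adjusted p = 1.00e-08) and 7.16-fold. IL24, a cytokine of the interleukin 10 family, read 109, 105 and 114 FPKM against 31.3, 31.9 and 34.5 FPKM, a difference of 1.72 (SE 0.06, adjusted p = 3.58e-10). TNFSF18, the ligand of the T cell receptor GITR, read 6.42, 5.80 and 4.89 FPKM against 1.01, 1.15 and 1.15 FPKM, a difference of 1.67 (SE 0.12, adjusted p = 1.05e-07). In none of the 3 did the sources overlap. Among 19 apoptosis regulators, 11 were higher with PANC-1 EV (57.9%) and 3 lower (15.8%), against 25.2% and 24.9% of all genes. The count of higher genes fell to 7 without the second PANC-1 EV library. BIRC3, an inhibitor of apoptosis induced by NF-kB, differed by 0.96, CFLAR, which blocks caspase 8, by 0.79, and CASP8 by 0.62.

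The interferon-stimulated response element is bound by factors of the interferon route. Its core, searched on both strands as GAAA and GAAA with 2 bases between them, was found in 17 of 30 matched promoters of the interferon list (56.7%), in 3.57% of all promoters and in 2.92% of those of tested genes. Of the 17 genes, 13 were higher with PANC-1 EV and none was lower, beside 32 of 38 higher (84.2%) in the whole list. The promoters of CXCL10, IFIT1 and BST2 are shown because they hold the core, in capitals. BST2, the membrane protein tetherin, was picked after its values were seen.
CXCL10, chr4:76023498-76023747 (minus strand): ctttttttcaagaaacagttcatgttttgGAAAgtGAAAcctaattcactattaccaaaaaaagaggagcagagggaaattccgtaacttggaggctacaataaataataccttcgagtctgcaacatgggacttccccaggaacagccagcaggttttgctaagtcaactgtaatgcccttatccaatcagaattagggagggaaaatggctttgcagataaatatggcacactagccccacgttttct
IFIT1, chr10:89392493-89392622 (plus strand): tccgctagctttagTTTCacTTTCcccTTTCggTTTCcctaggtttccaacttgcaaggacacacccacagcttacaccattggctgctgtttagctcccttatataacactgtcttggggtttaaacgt
BST2, chr19:17405631-17405770 (minus strand): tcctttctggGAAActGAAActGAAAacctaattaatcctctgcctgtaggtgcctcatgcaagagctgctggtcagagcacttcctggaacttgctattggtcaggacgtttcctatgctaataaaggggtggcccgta
The core runs from -221 to -212 in CXCL10. In IFIT1 it stands on the opposite strand from -116 to -107 and from -103 to -94, and in BST2 it stands at -130 to -121 and -124 to -115, which overlap. BST2 averaged 453 FPKM with PANC-1 EV and 277 FPKM with PPCL-68 EV, a difference of 0.70 (SE 0.06, adjusted p = 2.50e-07).

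DNA replication genes were higher with PANC-1 EV than with PPCL-68 EV. Of 37 genes of replication and nucleotide supply, 32 (86.5%) were higher and none was lower, with a median of 0.53. CDC45, part of the replicative helicase, read 22.4, 23.9 and 21.1 FPKM with PANC-1 EV and 8.47, 8.19 and 8.86 FPKM with PPCL-68 EV. Residual medium was higher than both, at 32.7, 31.8 and 32.7 FPKM, and the sources differed by 1.30 (SE 0.05, adjusted p = 4.45e-10), or 2.64-fold. RRM2, the small subunit of ribonucleotide reductase, differed by 1.30 (SE 0.05, adjusted p = 5.84e-10), and PCNA, the sliding clamp, by 0.41. Of 35 genes of mitosis and the spindle, 24 (68.6%) were higher and 1 lower, with a smaller median of 0.22. CENPA, the centromeric histone, differed by 0.71, TPX2, a spindle assembly factor, by 0.60, and CDC20, an activator of the anaphase complex, by 0.16.

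The E2F site was searched as TTTCGCGC and as TTTGGCGC on both strands, and 11 of the 32 matched replication promoters held at least 1 form. The first stood in 5 of the 32 against 0.515% of all promoters and 1.05% of those of tested genes, the second in 7 against 0.652% and 1.15%. Of the 11 genes, 10 were higher with PANC-1 EV and none was lower, beside 32 of 37 higher (86.5%) in the whole list. MCM6, a helicase subunit, and POLA1, the catalytic subunit of the polymerase that starts each DNA strand, are shown because they hold a site, in capitals, and were picked after their values were seen.
MCM6, chr2:135876444-135876603 (minus strand): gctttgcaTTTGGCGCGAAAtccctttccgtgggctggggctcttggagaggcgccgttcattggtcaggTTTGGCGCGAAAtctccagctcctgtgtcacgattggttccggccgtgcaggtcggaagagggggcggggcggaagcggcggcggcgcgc
POLA1, chrX:24693768-24693917 (plus strand): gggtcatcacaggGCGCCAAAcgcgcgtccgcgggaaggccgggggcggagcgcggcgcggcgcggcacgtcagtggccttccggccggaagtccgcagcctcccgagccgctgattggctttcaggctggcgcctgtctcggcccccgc
In MCM6 the 2 forms overlap on opposite strands, from -152 to -141 and again from -90 to -79, and POLA1 holds the second form from -137 to -130. MCM6 averaged 29.2 FPKM with PANC-1 EV and 19.3 FPKM with PPCL-68 EV, a difference of 0.58 (SE 0.04, adjusted p = 1.20e-07). POLA1 averaged 11.9 and 6.28 FPKM and differed by 0.82 (SE 0.06, adjusted p = 5.89e-08).

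Genes that build ribosomes and genes of the ribosome itself leaned in opposite directions. Of 36 ribosome biogenesis genes, 22 (61.1%) were higher with PANC-1 EV and 2 lower, with a median of 0.23. LYAR, a nucleolar protein, read 90.6, 94.8 and 98.7 FPKM against 57.3, 51.9 and 49.3 FPKM and differed by 0.83 (SE 0.06, adjusted p = 4.17e-08). Of 77 cytosolic ribosomal protein genes, 31 (40.3%) were lower with PANC-1 EV and 5 higher, with a median of -0.11, and RPL23 differed by -0.49 and RPS2, the most abundant, by -0.33. The other 41 of the 77 did not pass the test. The count of lower genes was 22 to 35 over the alternative settings and with each library left out. Ribosomal protein genes have many processed copies, and their counts are uncertain for that reason. MYC, a factor that drives ribosome biogenesis, was higher with PANC-1 EV by 0.50 (SE 0.05, adjusted p = 9.89e-07).

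The basal keratins KRT5 and KRT14 were higher with PANC-1 EV. KRT5 read 814, 872 and 896 FPKM with PANC-1 EV and 308, 313 and 357 FPKM with PPCL-68 EV. The PANC-1 EV libraries reached into the range of residual medium, 1043, 890.2 and 879 FPKM, and the sources differed by 1.40 (SE 0.07, adjusted p = 5.27e-09). KRT14, its partner, differed by 1.01 (adjusted p = 4.04e-06), with a near-identical copy in the genome that may share its reads. TP63, the master factor of basal epithelium, read 145, 133 and 141 FPKM against 60.2, 58.5 and 71.5 FPKM and differed by 1.13 (SE 0.06, adjusted p = 8.32e-09). Across 35 keratin and junction genes, 19 were higher and 9 lower, with a median of 0.24. KRT10, a keratin of differentiated squamous epithelium, was the lowest of the list, at 7.71, 7.88 and 9.56 FPKM against 10.2, 16.7 and 11.8 FPKM and a difference of -0.54 (adjusted p = 0.00287), or -0.36 without the second PPCL-68 EV library. The laminin chains LAMA3 and LAMB3 of the epithelial basement membrane were also lower, by -0.35 and -0.33. KRTAP2-3, of a hair keratin-associated family with near-identical copies, differed by 1.34 from 20.8 to 7.64 FPKM, both below the 89.2 FPKM of residual medium.

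Several secreted growth regulators differed by more than 1. FGFBP1, a secreted carrier that releases fibroblast growth factors, read 129.9, 143 and 152 FPKM with PANC-1 EV, 37.6, 38.3 and 49.2 FPKM with PPCL-68 EV and 541, 445 and 404 FPKM in residual medium. Both sources were below residual medium and PPCL-68 EV was the lower, with a difference of 1.75 (SE 0.11, adjusted p = 2.22e-08). FST, the activin antagonist follistatin, read 444, 455 and 473 FPKM against 173, 153 and 153 FPKM, with residual medium between them at 232, 226 and 219.8 FPKM and a difference of 1.51 (SE 0.06, adjusted p = 2.95e-10). APLN, the peptide apelin that acts on vessels, differed by 1.32 and EDN1, the vasoconstrictor endothelin 1, by 1.03. FGF2, basic fibroblast growth factor, was lower with PANC-1 EV, by -0.50 (adjusted p = 2.91e-06). Of 31 angiogenic and secreted growth factors, 13 were higher and 8 lower, the latter count falling to 5 with no level filter, without the second PANC-1 EV library or without the third PPCL-68 EV library.

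COL8A1, a short-chain collagen, read 15.6, 15.2 and 16.4 FPKM with PANC-1 EV and 3.25, 3.15 and 3.74 FPKM with PPCL-68 EV. Its PANC-1 EV libraries reached into the range of residual medium, 16.1, 19.2 and 18.2 FPKM, and the sources differed by 1.94 (SE 0.07, adjusted p = 2.38e-10), or 4.66-fold. HAS2, which makes the matrix polymer hyaluronan, differed by 1.78 and SMOC1, a calcium-binding matrix protein, by 1.59. THBS2, a thrombospondin, differed by 1.04. PPP1R3C, which directs a phosphatase to glycogen and lies outside these groups, differed by 1.75, from 24.6 to 6.61 FPKM. Over the whole set of 29 collagen and matrix genes, 12 were higher (41.4%) and 8 lower (27.6%) and the median was 0.03. Among all genes 25.2% were higher and 24.9% lower. FN1, the fibronectin gene, was lower with PANC-1 EV by -0.61 (adjusted p = 2.28e-05), as were the mesenchymal factor TWIST2, by -0.72, and the TGF-beta target PMEPA1, by -0.78. Of 25 genes linked to epithelial-mesenchymal transition, 11 were lower and 5 higher.

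Proteases also split by source. PLAT, tissue plasminogen activator, read 16.1, 17.7 and 15.6 FPKM with PANC-1 EV and 4.76, 5.06 and 5.12 FPKM with PPCL-68 EV and differed by 1.54 (SE 0.05, adjusted p = 2.79e-10). ADAMTS1, a secreted metalloprotease, was higher by 1.13, whereas the interstitial collagenase MMP1, at 30.6, 32.8 and 30.7 FPKM against 63.1, 61.0 and 61.1 FPKM, was lower by -0.96 (SE 0.16, adjusted p = 0.000175). MMP9, a gelatinase, was lower by -0.61 (adjusted p = 0.00197). Of 25 proteases and inhibitors, 4 were higher and 10 lower.

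**Figure D3:**
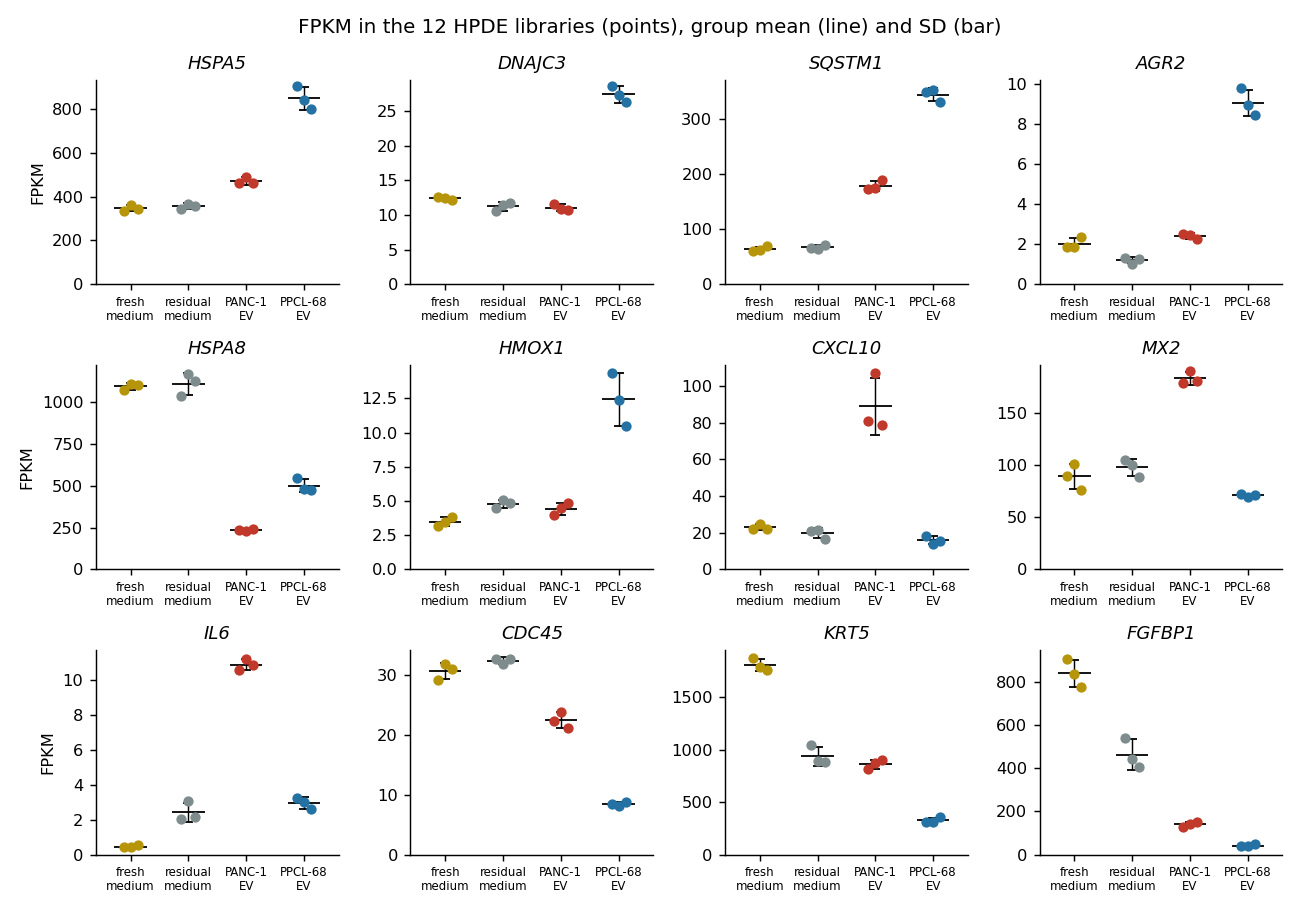
FPKM (vertical axes, from 0) of 12 genes in each of the 12 HPDE libraries, grouped by fresh medium, residual medium, PANC-1 EV and PPCL-68 EV; points are libraries, lines are group means and bars are SD (n = 3). HSPA5 lies between 459 and 491 with PANC-1 EV and between 799 and 903 with PPCL-68 EV, and CXCL10 is high only in the PANC-1 EV libraries.

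RNA from the mitochondrial genome made up 0.362 to 0.635% of reads with PANC-1 EV, 0.569 to 0.775% with PPCL-68 EV, 0.929 to 1.04% in residual medium and 0.872 to 1.25% in fresh medium. The 2 vesicle groups overlapped, and the total was not tested. Of 12 mitochondrial genes, 6 were lower with PANC-1 EV and none was higher, with MT-CYB of complex III at -0.70 (adjusted p = 0.00365) and MT-ND1 of complex I at -0.65 (adjusted p = 0.00377). The count rose to 11 without the first PANC-1 EV library. Nuclear genes of the respiratory chain passed the test in 9 of 38 cases, 6 higher (15.8%) and 3 lower (7.89%). Both shares were below the 25.2% and 24.9% of all genes. The counts were 9 and 1 without the first PANC-1 EV library and 8 and 2 without the second PPCL-68 EV library. The part of mitochondrial RNA in the other differences was not tested.

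Residual medium placed each source against a common reference, and since both comparisons share those 3 libraries their values are set side by side only. PANC-1 EV differed from residual medium in 7736 genes (63.3%; 28.2% higher and 35.1% lower), and PPCL-68 EV in 8281 (67.7%; 31.3% and 36.4%). The ER folding list had a median of -0.04 with PANC-1 EV, with 7 genes higher and 8 lower, and of 0.34 with PPCL-68 EV, with 22 higher and 3 lower. ER-associated degradation and translocation had 5 of 29 higher and 10 lower with PANC-1 EV, and 24 higher and 2 lower with PPCL-68 EV. COPII and Golgi transport had 6 of 25 higher and 11 lower with PANC-1 EV, and 18 higher and 3 lower with PPCL-68 EV. HSPA5 was above residual medium with both, by 0.40 (adjusted p = 1.99e-05) and 1.24 (adjusted p = 1.13e-10). ATF4 and CHOP targets were above residual medium with both sources, in 23 and 24 of 25 genes, with medians of 1.03 and 1.30.

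Interferon-stimulated genes lay on either side of residual medium: 24 of 38 were higher and 3 lower with PANC-1 EV (median 0.34), and 3 were higher and 17 lower with PPCL-68 EV (median -0.10). Chemokine and NF-kB genes were above it in 26 of 31 cases and below it in 1 with PANC-1 EV, and above it in 15 and below it in 8 with PPCL-68 EV. Replication genes were below it with both sources, in 35 of 37 genes with PANC-1 EV (median -0.50) and in 37 of 37 with PPCL-68 EV (median -1.10). Heat shock chaperones were below it in 21 of 30 genes with either source. HSPA8 stood at -2.22 from it with PANC-1 EV, against -1.15 with PPCL-68 EV. Of the 10 duct epithelium markers tested, PANC-1 EV left 10 below residual medium (median -0.75). PPCL-68 EV left 8 below it (median -0.95), and no marker was above it under either source.

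**Figure D4:**
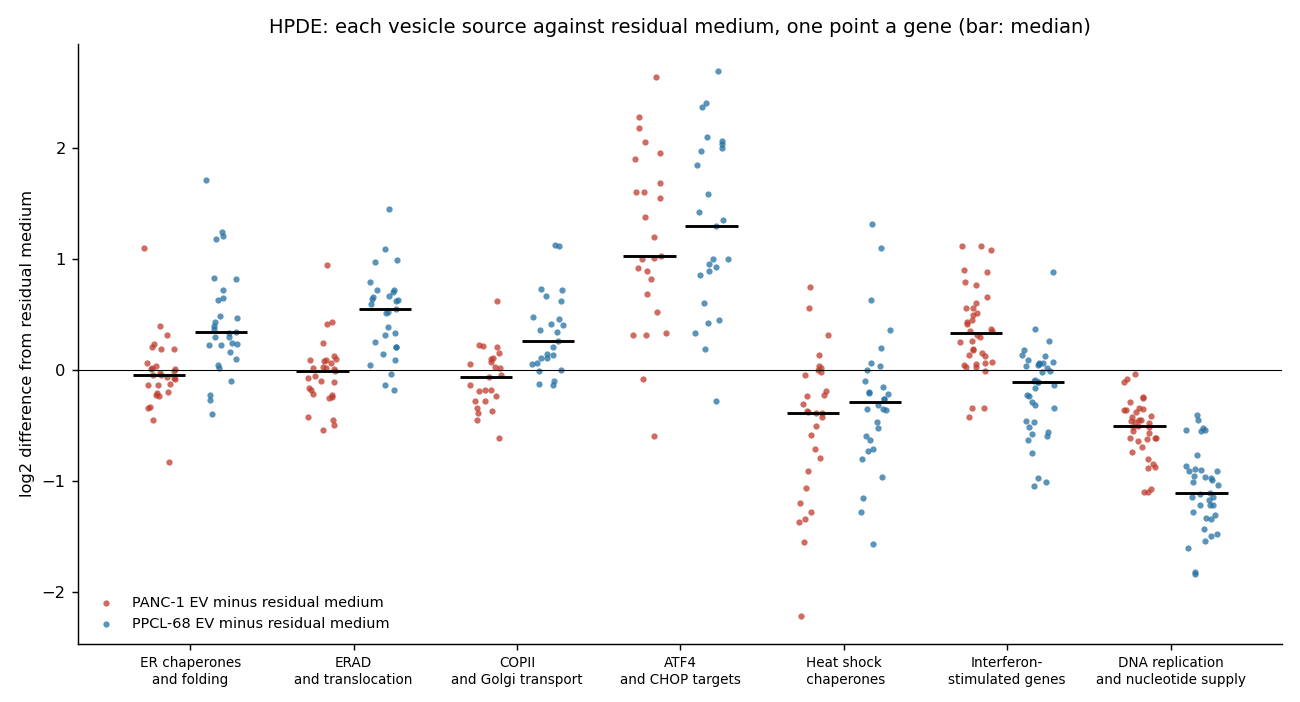
Log2 difference from residual medium (vertical axis) of every tested gene in 7 lists, side by side for the vesicle sources; each point is a gene and each bar the median. The ER folding genes centre at -0.04 and 0.34, and the replication genes at -0.50 and -1.10.

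The same 2 sources were compared in HPNE cells, with no library shared with HPDE. In each HPNE group 1 library stood apart from the other 2: its root mean square log2 distance to them was 0.284 to 0.420, against 0.136 to 0.156 for the remaining pairs, and differences between the lines are given with and without those 4 libraries (an alternative added after the data were seen). Of the genes tested in HPDE, 553 (4.52%, with 2.36% higher and 2.17% lower) differed between the sources in HPNE with all libraries and 3421 without the 4. The 4 were picked for their distance, which by itself narrows the spread within groups. Counts of calls and p-values without them are therefore not comparable with those from all libraries. The sign was the same in both lines for 7127 of the 12223 genes (58.3%), and for 3894 of the 6123 called in HPDE (63.6%). Across genes the 2 sets of differences had a Pearson r of 0.26 and a Spearman rho of 0.25, as a description over genes that are not independent. Without the 4 libraries, 7158 genes (58.6%) had the same sign and r was 0.28. The difference between sources itself differed between the lines in 2072 genes (17.0%; 8.04% more positive in HPDE and 8.91% more negative), by an interaction term in a fit of all 24 libraries, and in 4107 without the 4.

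For interferon-stimulated genes the difference was more positive in HPDE in 22 of 38 members and more negative in none, and in 31 and 1 without the 4 libraries. Their median in HPNE was -0.17 (-0.18 without the 4), against 0.54 in HPDE. CXCL10 averaged 0.115 ± 0.127 FPKM with PANC-1 EV and 0.0541 ± 0.0751 FPKM with PPCL-68 EV in HPNE, and its interaction was 2.32 (adjusted p = 3.09e-08; 2.30 without the 4). That call was lost with voom, where the interaction was 1.48, and counts in HPNE were near 0. ER folding genes had a median of -0.01 in HPNE (0.09 without the 4), with 10 of 30 more negative in HPDE and 1 more positive by the interaction term, and 23 and 1 without the 4. The call for HSPA5 depended on those libraries: with all of them HPNE gave -0.66 (adjusted p = 0.0523), HPDE -0.85, and the interaction was -0.18 (95% interval -0.55 to 0.18, adjusted p = 0.524), while without the 4 HPNE gave -0.48 and the interaction was -0.36 (adjusted p = 0.00151). Replication genes had a median of 0.34 in HPNE (0.24 without the 4), and 2 of 37 passed the interaction test with all libraries, 21 without the 4. For mitosis genes the HPNE median was 0.49 (0.32 without the 4), and none of 35 passed it with all libraries, against 1 more positive and 8 more negative in HPDE without the 4.

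The gene with the largest interaction was SLC7A2, a transporter of arginine and lysine, which averaged 38.7 ± 7.23 FPKM with PANC-1 EV and 253 ± 79.7 FPKM with PPCL-68 EV in HPNE. In HPDE it averaged 9.71 and 9.03 FPKM, and the interaction was 2.73 (adjusted p = 2.83e-07; 2.91 without the 4). COL8A1 (interaction 2.36, 2.21 without the 4), IL24 (2.43) and AREG (2.32), a ligand of the EGF receptor, followed with CXCL10. The IL24 and AREG calls were unstable, lost without 6 and 9 of the 24 libraries in turn, and their interactions were 1.48 and 1.64 without the 4. At the other end, SFRP1, a secreted WNT antagonist, averaged 40.7 ± 20.1 against 6.51 ± 2.06 FPKM in HPNE and 15.8 against 17.9 FPKM in HPDE, an interaction of -2.56 (adjusted p = 0.0105; -2.74 without the 4). JUP, the junction protein plakoglobin, had an interaction of -1.70, HTRA1, a secreted serine protease, of -1.69, FAM43A of -1.67 and AGR2 of -1.58. Without the 4 these were -2.04, -1.84, -1.93 and -1.58.

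**Figure D5:**
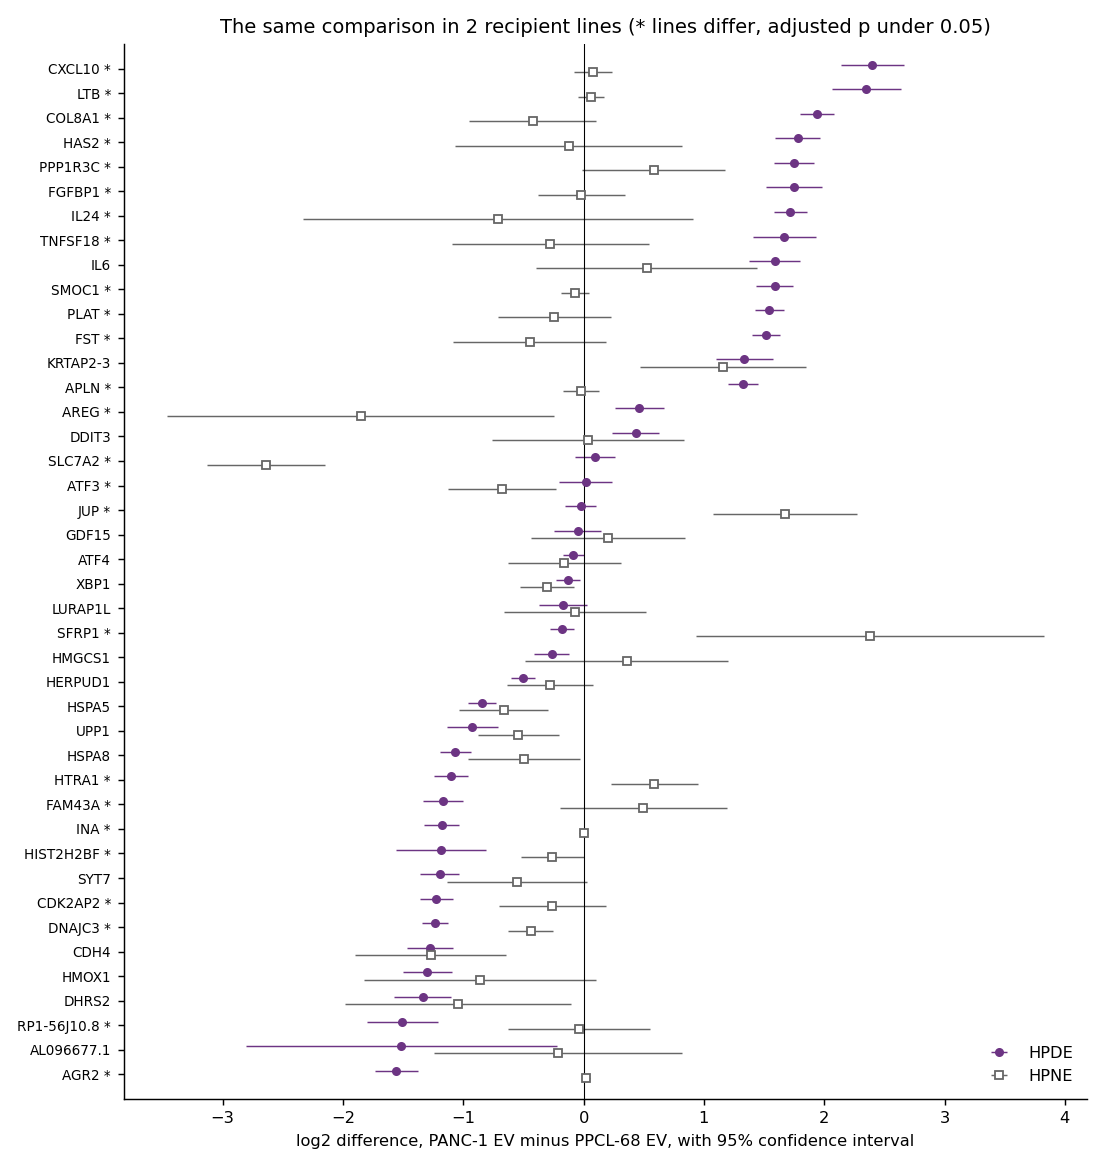
Log2 difference (PANC-1 EV minus PPCL-68 EV, horizontal axis) in HPDE (filled circles) and HPNE (open squares, all 12 HPNE libraries), with 95% confidence intervals, for the genes furthest from 0 in HPDE, the genes fixed by name and those with the largest interactions; an asterisk marks an interaction past the threshold. CXCL10 stands at 2.40 in HPDE and 0.08 in HPNE, while SLC7A2 stands at 0.09 and -2.64.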

How the data were processed

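RNA from HPDE and HPNE cells in 24 libraries (8 groups of 3) was sequenced from a kit that keeps no strand, per the labels' protocols. The authors deposited 1 table of FPKM values per library, listing 48162 genes with hg19 coordinates. CASAVA, STAR, HTSeq and DESeq2 and the build hg19 are named, without roles, per the submitters' processing notes; their versions are not given in the sources used here. FPKM times gene length gave whole reads, within 0.01 reads, for 100% of values, and these set the depths.

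Genes with a mean of at least 1 FPKM over the 12 HPDE libraries were tested with limma 3.58.1 (R 4.3.3), with a mean-variance trend, on log2(FPKM + 1). All 4 HPDE treatments were fitted together (8 residual degrees of freedom), and p-values were adjusted by Benjamini-Hochberg over all 12223 genes at 0.05. HPNE was fitted likewise on its 12 libraries, and the line-by-source interaction on all 24 (16 residual degrees of freedom). The fit was also run on simulated data in which far fewer genes changed than were called here. That run cannot show how the fit behaves when so many genes differ. RefSeq promoters (GRCh38.p14) matched 9290 of the 12223 genes. Other steps used python 3.11.15, numpy 2.4.6, pandas 2.3.3, scipy 1.17.1 and matplotlib 3.10.9.

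Genes were named from the 12 called with the largest difference in each direction whose groups did not overlap, up to 3 called members in each direction and the most abundant member of each of 44 lists, 15 fixed genes, and the 5 largest and 5 smallest interactions. Some genes that this rule takes are not reported here. The members and lists were chosen with earlier results of these data known. Alternatives were a pseudocount of 0.1 FPKM, no level filter, median-of-ratios size factors, the vesicle libraries alone, a replicate block, limma voom on the recovered reads, and each library left out in turn.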

Additional observations from a re-analysis of the deposited data

Results flagged for a closer look

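The difference between the vesicle sources in HPDE was set against the same difference in HPNE by an interaction term, given here as HPDE minus HPNE on the log2(FPKM + 1) scale, and 2072 of 12223 genes passed. Values without the 4 HPNE libraries that stood apart follow each value with all libraries. Among the named genes, 9 that passed had HPNE means under 0.5 FPKM with either source, where this scale compresses differences. Their interactions were 2.32 for CXCL10 (adjusted p = 3.09e-08; 2.30 without the 4), 2.29 for LTB (3.57e-08; 2.24), 1.77 for FGFBP1 (1.48e-05; 1.79), 1.65 for SMOC1 (1.99e-09; 1.66) and 1.34 for APLN (6.24e-08; 1.34). They were -1.58 for AGR2 (1.99e-09; -1.58), -1.18 for INA (3.57e-08; -1.18), -0.93 for HIST2H2BF (0.00947; -0.99) and -1.47 for RP1-56J10.8 (0.00254; -1.65).

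In several other genes the HPDE difference was over 1 in size and the HPNE difference had the other sign. None of these HPNE differences passed the test with all libraries. Of the 81 genes called in HPDE with a difference of at least 1, 2 passed in HPNE, both with the same sign. Without the 4, the HPNE differences of HAS2, TNFSF18 and PLAT did not pass either (adjusted p = 0.333, 0.213 and 0.242). COL8A1 differed by 1.94 in HPDE and -0.42 in HPNE (-0.27 without the 4), an interaction of 2.36 (adjusted p = 3.72e-06; 2.21 without the 4). FST differed by 1.51 and -0.45 (-0.34), an interaction of 1.96 (0.000146; 1.85). HAS2 stood at -0.13 in HPNE (-0.17), with an interaction of 1.90 (0.00508; 1.94), TNFSF18 at -0.28 (-0.28), with 1.94 (0.00196; 1.94), and PLAT at -0.24 (-0.21), with 1.79 (1.70e-05; 1.75). HTRA1 differed by -1.10 in HPDE and 0.59 in HPNE (0.74), an interaction of -1.69 (1.46e-06; -1.84), and FAM43A by -1.17 and 0.50 (0.76), an interaction of -1.67 (0.00137; -1.93). IL24 had the second largest interaction, 2.43 (adjusted p = 0.029; 1.48), with HPNE values from 31.9 to 180.4 FPKM in the PPCL-68 EV libraries. Its HPNE difference was -0.71 with all libraries and 0.23 without the 4, so its sign in HPNE rested on them. AREG had a smaller HPDE difference, higher with PANC-1 EV at 0.46, and stood at -1.85 in HPNE (-1.18), an interaction of 2.32 (0.0356; 1.64). The IL24 and AREG calls were lost without 6 and 9 of the 24 libraries in turn, and both were lost with no level filter.

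For PPP1R3C, DNAJC3 and CDK2AP2 the differences in both lines had the same sign and that in HPDE was the larger. The interaction was 1.17 for PPP1R3C (0.00693; 0.98), -0.79 for DNAJC3 (2.51e-05; -0.83) and -0.97 for CDK2AP2 (0.004; -0.87).

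In a last set the HPDE difference was under 0.25 in size and the HPNE difference was larger. SLC7A2 differed by 0.09 in HPDE and -2.64 in HPNE (2.73, 2.83e-07; 2.91), SFRP1 by -0.18 and 2.38 (-2.56, 0.0105; -2.74), and JUP by -0.02 and 1.67 (-1.70, 0.000319; -2.04). ATF3, a stress-induced factor, differed by 0.02 and -0.68 (0.70, 0.0461; 0.53).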

How the results depend on the processing

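The count of genes differing between the sources was 5640 to 6206 over the settings tried on all 12 HPDE or the 6 vesicle libraries, against 6123, and 5244 to 6268 with each library left out. The number differing by at least 1 was 73 to 93 with each library left out, against 81, and was 166 with a pseudocount of 0.1 FPKM and 191 with voom on recovered reads. The log2(FPKM + 1) scale compresses differences of genes of low FPKM more than these 2 settings do. The interaction count was 4107 without the 4 HPNE libraries that stood apart, against 2072, and 1504 to 2690 with each library left out. Those 4 were picked for their distance, which narrows the spread within groups, so 4107 is not comparable with 2072. Other causes of these shifts were not tested. Among the named genes, no difference that passed the test changed sign under any alternative run. Of those that did not pass it, 11 changed sign under 1 or more, ATF3, ENO1, IFI6, JUP and KRT7 among them. Their values of the other sign were at most 0.111 in size. The sign also changed for 4 list medians near 0, among them those of amino acid transporters and angiogenic factors. Genes that were not named were not checked for sign. Replicate numbers do not pair these libraries. Same-numbered libraries of the 2 sources had correlations of their deviations of -0.085, 0.026 and 0.020. No library correlated best with its own number. With the number as a replicate block the count was 5789, the interaction count 2039 and the count of differences of at least 1 was 80, and 5 named genes, CHORDC1 and AL096677.1 among them, no longer passed. Depth limited genes of few reads, such as AL096677.1.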

Other observations

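Lipid synthesis differed gene by gene. Of 24 cholesterol synthesis and uptake genes, 10 were higher with PANC-1 EV in HPDE (41.7%) and 6 lower (25%), with a median of 0.10. Among all genes 25.2% were higher and 24.9% lower. Below residual medium were 20 under PANC-1 EV and 22 under PPCL-68 EV, against 35.1% and 36.4% of all genes. ACAT2, an acetyl-CoA acetyltransferase, read 14.02, 16.1 and 13.99 FPKM with PANC-1 EV and 7.40, 6.81 and 7.77 FPKM with PPCL-68 EV, a difference of 0.91 (SE 0.06, adjusted p = 4.42e-08). FDFT1, squalene synthase, differed by 0.78 and SQLE, the next enzyme of the pathway, by -0.36, in the opposite direction. HMGCS1, the synthase at the head of the pathway, averaged 19.4 and 23.6 FPKM against 72.4 FPKM in residual medium and differed by -0.27 (adjusted p = 0.00412). In HPNE the median of the cholesterol list was 0.49 (0.47 without the 4 HPNE libraries that stood apart), and the difference was more negative in HPDE for 10 of the 24 genes. Of 19 fatty acid genes, 9 were higher with PANC-1 EV and 6 lower, with the desaturases FADS2 and SCD at 0.72 and 0.44. The cholesterol exporters ABCA1 and ABCG1 differed by 0.51 and 0.50 (adjusted p = 0.000584 and 0.00223).

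RNA of amino acid transport and synthesis genes was mostly above residual medium with both sources, and the list medians between the sources were near 0. Amino acid supply itself was not measured. Amino acid transporters were above residual medium in 12 of 17 genes with either source, and 3 were higher and 6 lower with PANC-1 EV than with PPCL-68 EV, the lower count falling to 3 with no level filter or without the second PPCL-68 EV library and to 4 in the fit of 6 libraries alone, without the first fresh-medium library or without the second PANC-1 EV library. SLC7A5, the large neutral amino acid transporter, averaged 837 ± 26.8 FPKM with PANC-1 EV and 771 ± 17.3 FPKM with PPCL-68 EV, a difference of 0.12 (adjusted p = 0.131). MTHFD1, of folate metabolism, was the furthest of its list at 0.68 (adjusted p = 2.01e-08). Of 31 glycolysis and hypoxia genes, 12 were higher (38.7%) and 8 lower (25.8%), not far from the 25.2% and 24.9% of all genes. Among them PKM stood at 0.43, NDRG1 at -0.81 and ENO1, the most abundant, at 0.00 (adjusted p = 0.994). Among EGF family and ERK feedback genes, 13 of 30 were higher (43.3%) and 6 lower (20%), with the ligands NRG1 and TGFA at 0.87 and 0.76 and EREG at -0.26. Of 25 genes of vesicle biogenesis and tetraspanins, 10 were lower with PANC-1 EV and 5 higher (8 higher with voom): CD63, a tetraspanin common in vesicles, read 164, 168 and 174 FPKM against 252, 293 and 254 FPKM and differed by -0.65 (SE 0.06, adjusted p = 8.50e-07).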
